A study of Mus musculus with 8 samples.

Results

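Neural precursor cells (NPC) made from mouse embryonic stem (ES) cells in culture were compared with ES cells on 6 whole-genome oligonucleotide arrays, 3 of each, out of 8 in the series. The comparison was defined by the array titles, and covered all 34945 of 45101 probe sets that the platform annotation listed with 1 gene, which came to 18193 genes. The ES cells were wild-type V6.5 cells, grown on irradiated embryonic fibroblasts in fetal calf serum with LIF and then passaged without feeders on gelatin before harvest. The NPC were wild-type cells differentiated from ES cells through embryoid bodies, selection in a medium with insulin, transferrin, selenium and fibronectin, and expansion with FGF2 and EGF. The labels describe them as positive for nestin and Sox2 and able to form 3 cell types, so both groups are cultures and neither is tissue. The remaining 2 arrays, of primary mouse embryonic fibroblasts (MEF), entered the normalization and the estimate of the spread, and serve once as a reference for fibroblast genes. Whether arrays of the same group are separate cultures is not stated in the labels, so p-values measure only the spread between arrays, which may be technical.

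ES cells keep themselves undifferentiated through a small circuit of transcription factors, with Pou5f1 (Oct4), Sox2 and Nanog at its centre, that act together on shared enhancers. Neural precursors grown in FGF2 and EGF resemble radial glia, the dividing cells that line the ventricles of the embryonic brain and produce neurons and then glia. Sox2 serves both cell types, with different POU partners, so the change from one to the other replaces many factors while keeping some.

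Values are log2(intensity + 16) after quantile normalization, called log2 values below, and a difference is NPC minus ES on that scale, which understates changes of dim genes. Levels of different genes are not comparable, since each is read by its own probe set. Probe sets of shared sequence are those whose name ends in _x_at, _s_at or _a_at, which marks probes common to more than 1 transcript. The median deposited intensity of an array lay between 19.12 and 31.5 over the 8 arrays. ES arrays correlated with each other at 0.986 to 0.989 and NPC 2 with NPC 3 at 0.987, while NPC 1 correlated with them at only 0.967 and 0.969. The log2 ratio of the 3' to the 5' control probe sets of Actb, a measure of RNA integrity, was 0.32 on NPC 1, the lowest of the 6 compared arrays, and 0.41 to 0.51 on the other 5. The same ratio of another control transcript on the array was -0.49 to -0.44 on the NPC arrays and -0.35 to -0.29 on the ES arrays, which do not overlap, and the part of RNA quality in the results was not tested. NPC 1 is therefore marked by a triangle in the plot of single genes. Where it moved the fold of a named gene by over 1.5 times, the values of the NPC arrays or the difference without NPC 1 are given.

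A gene was called when limma's moderated test gave an adjusted p under 0.05 (Benjamini-Hochberg over all 18193 genes) and the absolute log2 difference was at least 1. By this rule 4173 genes (22.9%) were called, 1828 higher in NPC (10.0%) and 2345 lower (12.9%), and the ES and NPC arrays did not overlap for 4154 of them. The median difference over all genes was -0.05. With NPC 1 left out, 4438 genes were called (24.4%), of which 1993 were higher (11.0%) and 2445 lower (13.4%). Of the calls made with all arrays, 3971 were made again in the same direction without NPC 1, and none turned. Called genes spread over the whole range of intensity, and the genes farthest from the diagonal were near the floor of the scale in 1 of the groups.

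**Figure D1:**
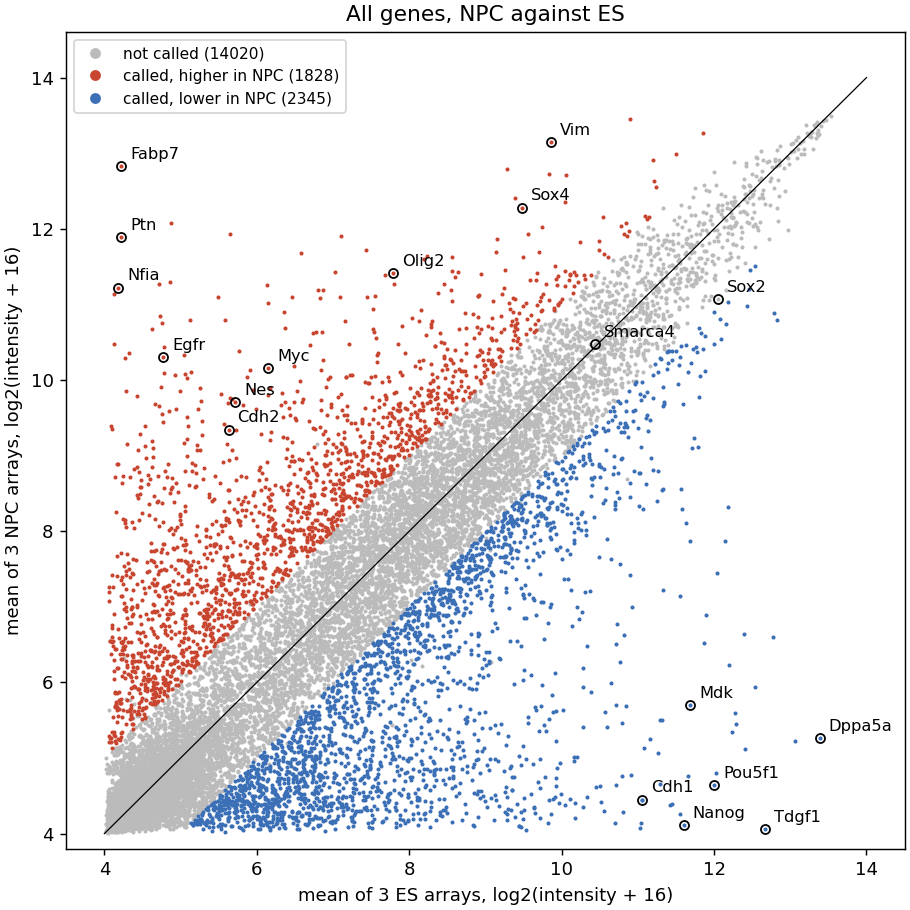
Mean log2 value of the 3 NPC arrays against the 3 ES arrays for each of the 18193 genes, with called genes in colour and 18 genes named. Nanog, Pou5f1, Tdgf1 and Dppa5a lie at the bottom right and Fabp7, Ptn and Nfia at the top left, while Smarca4 lies on the diagonal.

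The marker genes followed the labels. For every called gene named here except Hand2 and Phlda3, the ES and NPC arrays did not overlap. Nanog, a homeodomain factor of the pluripotency circuit, read 11.70, 11.71 and 11.39 on the ES arrays and 4.20, 4.04 and 4.10 on the NPC arrays, a log2 difference of -7.49 (SE 0.13, adjusted p = 1.6e-09 by limma). Pou5f1 read 11.95, 11.99 and 12.08 in ES cells and 4.47, 4.59 and 4.88 in NPC. Both genes were near the floor of the scale on every NPC array. Fabp7, a brain fatty acid binding protein of radial glia, went the other way, from 4.40, 4.16 and 4.11 to 13.18, 12.72 and 12.58 with a difference of 8.60 (SE 0.16, adjusted p = 2.3e-09 by limma). Nes, the intermediate filament nestin, read 5.82, 6.05 and 5.27 and then 9.57, 9.86 and 9.68. Olig2, a basic helix-loop-helix factor of ventral precursors, read 7.65, 7.79 and 7.91 and then 11.86, 11.25 and 11.12, so its ES level was already well above the floor. Sox2, which the labels name for the NPC, stayed high in both groups, at 12.14, 12.09 and 11.91 in ES cells and 11.61, 10.87 and 10.72 in NPC. Its difference of -0.98 did not reach the limit of 1 (adjusted p = 0.003), and without NPC 1 it was called at -1.25.

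Upstream sequences of 5 genes with large differences in either direction are shown because POU factors bind the octamer ATGCAAAT and because Pou5f1 and Sox2 bind side by side. Each is the 250 bases before a RefSeq transcript start in GRCm38.p6, 5′ to 3′ on the strand of the gene, with matches in capitals. Nanog, Gpm6a and Tnc had 2 such windows each, and one with a match was shown in preference to one without. Zfp42 and Fabp7 had 1 window each.
Nanog, chr6:122707239-122707488, plus strand: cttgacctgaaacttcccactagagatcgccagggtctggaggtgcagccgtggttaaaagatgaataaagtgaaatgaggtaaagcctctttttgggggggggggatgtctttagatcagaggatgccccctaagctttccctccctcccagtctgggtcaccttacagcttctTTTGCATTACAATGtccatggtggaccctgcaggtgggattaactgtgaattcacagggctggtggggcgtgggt
Zfp42, chr8:43307010-43307259, minus strand: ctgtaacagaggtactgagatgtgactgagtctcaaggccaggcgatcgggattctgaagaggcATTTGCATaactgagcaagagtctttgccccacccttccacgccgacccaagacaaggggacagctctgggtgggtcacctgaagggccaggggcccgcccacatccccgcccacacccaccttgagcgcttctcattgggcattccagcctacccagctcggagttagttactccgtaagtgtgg
Fabp7, chr10:57784673-57784922, plus strand: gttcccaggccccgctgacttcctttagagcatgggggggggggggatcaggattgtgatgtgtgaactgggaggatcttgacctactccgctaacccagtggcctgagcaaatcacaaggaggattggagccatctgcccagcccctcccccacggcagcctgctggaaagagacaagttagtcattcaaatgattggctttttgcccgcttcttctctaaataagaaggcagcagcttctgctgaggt
Gpm6a, chr8:54779184-54779433, plus strand: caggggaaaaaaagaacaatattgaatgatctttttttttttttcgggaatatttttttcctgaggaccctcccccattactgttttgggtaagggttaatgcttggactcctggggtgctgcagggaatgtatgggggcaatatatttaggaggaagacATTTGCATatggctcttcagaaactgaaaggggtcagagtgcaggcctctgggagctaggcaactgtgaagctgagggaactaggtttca
Tnc, chr4:64046937-64047186, minus strand: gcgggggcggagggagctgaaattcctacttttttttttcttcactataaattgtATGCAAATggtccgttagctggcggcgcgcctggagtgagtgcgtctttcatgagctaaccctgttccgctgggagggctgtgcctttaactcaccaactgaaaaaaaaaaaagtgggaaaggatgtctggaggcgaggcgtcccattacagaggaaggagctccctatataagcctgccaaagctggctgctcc
The capitals in Nanog mark a Sox site next to the first 7 letters of the octamer, not a full octamer, searched on both strands as CATTGT, 0 to 3 bases, then ATGCAAA, and found here on the opposite strand 62 to 75 bases before the start. Only 2 of 27025 genes with an upstream sequence had this pair (0.0074%), and Nanog was the only called gene among them. The capitals in Zfp42, Gpm6a and Tnc mark a full octamer, which 1.81% of all genes with an upstream sequence and 1.57% of the 14453 tested ones had on either strand. It was in 36 of 1867 genes called lower in NPC (1.93%) and in 30 of 1437 called higher (2.09%), so the octamer was about as frequent in both directions. Zfp42 fell by 7.29 on the log2 scale while Gpm6a, a membrane glycoprotein of growing neurites, rose by 6.34 and Tnc, the matrix protein tenascin C, by 4.63. No match was found in the Fabp7 window. A match describes letters only, and binding was not measured.

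Of 20 measured pluripotency factors 18 fell and none rose, with a median difference of -4.75. The members that were not called were Sox2 and Zfp281, a zinc finger factor (-0.72), which was chosen after its values were seen. Sall4, a zinc finger partner of Pou5f1, read 10.94, 10.99 and 11.21 in ES cells and 4.10, 4.22 and 4.10 in NPC. Esrrb, an orphan nuclear receptor, read 10.53, 10.55 and 10.70 and 5.27, 5.35 and 5.63. Klf4 fell but stayed above the floor, with 11.19, 11.17 and 11.22 in ES cells against 9.53, 8.40 and 8.49 in NPC, highest on NPC 1. Among 10 factors of the later epiblast the picture was mixed, with 3 higher and 4 lower. Otx2, which marks the primed epiblast and the anterior brain, fell by 3.38 on the log2 scale, and Zic5 (-2.64), Foxd3 (-1.83) and the epithelial factor Grhl2 (-1.73) were lower too. Sox3 rose by 3.92, Sall2 by 2.99 and Pou3f1 (Oct6) by 2.33, from 7.61, 7.60 and 7.71 to 8.68, 10.74 and 10.49. All 3 are also expressed in neural tissue.

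Of 23 genes of Nodal, LIF and BMP signalling 12 were lower in NPC and 3 higher. Tdgf1 (Cripto), the Nodal co-receptor, had a difference of -8.61 (SE 0.11, adjusted p = 4.6e-10 by limma), from 12.65, 12.72 and 12.63 to 4.05, 4.04 and 4.09. Its ligand Nodal and the Nodal antagonists Lefty1 and Lefty2 had log2 differences of -4.57, -7.06 and -5.35. Fgf4, the growth factor that ES cells make for themselves, read 10.48, 10.43 and 10.73 and then 4.63, 4.04 and 4.21. Socs3, a feedback inhibitor that LIF induces through Stat3, fell by 4.66, while Stat3 itself was higher in NPC by 1.14 and the receptor Lifr was not called (-0.40). Id2 and Id3, targets of BMP signalling that block basic helix-loop-helix factors, were higher by 2.81 and 3.69. Among 11 oncofetal and ES RNA-binding genes 9 were lower, with L1td1 at -6.90, Lin28a, which blocks let-7 maturation, at -5.98 and Igf2bp1 at -5.92. Hmga2, an architectural factor of fetal neural stem cells, was the only higher member at 1.97, from 6.78, 6.88 and 7.05 to 9.64, 8.36 and 8.60. Of 18 germline genes 13 were lower and none higher, among them Sycp3 (-5.12) and Tdrd12 (-4.97).

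**Figure D2:**
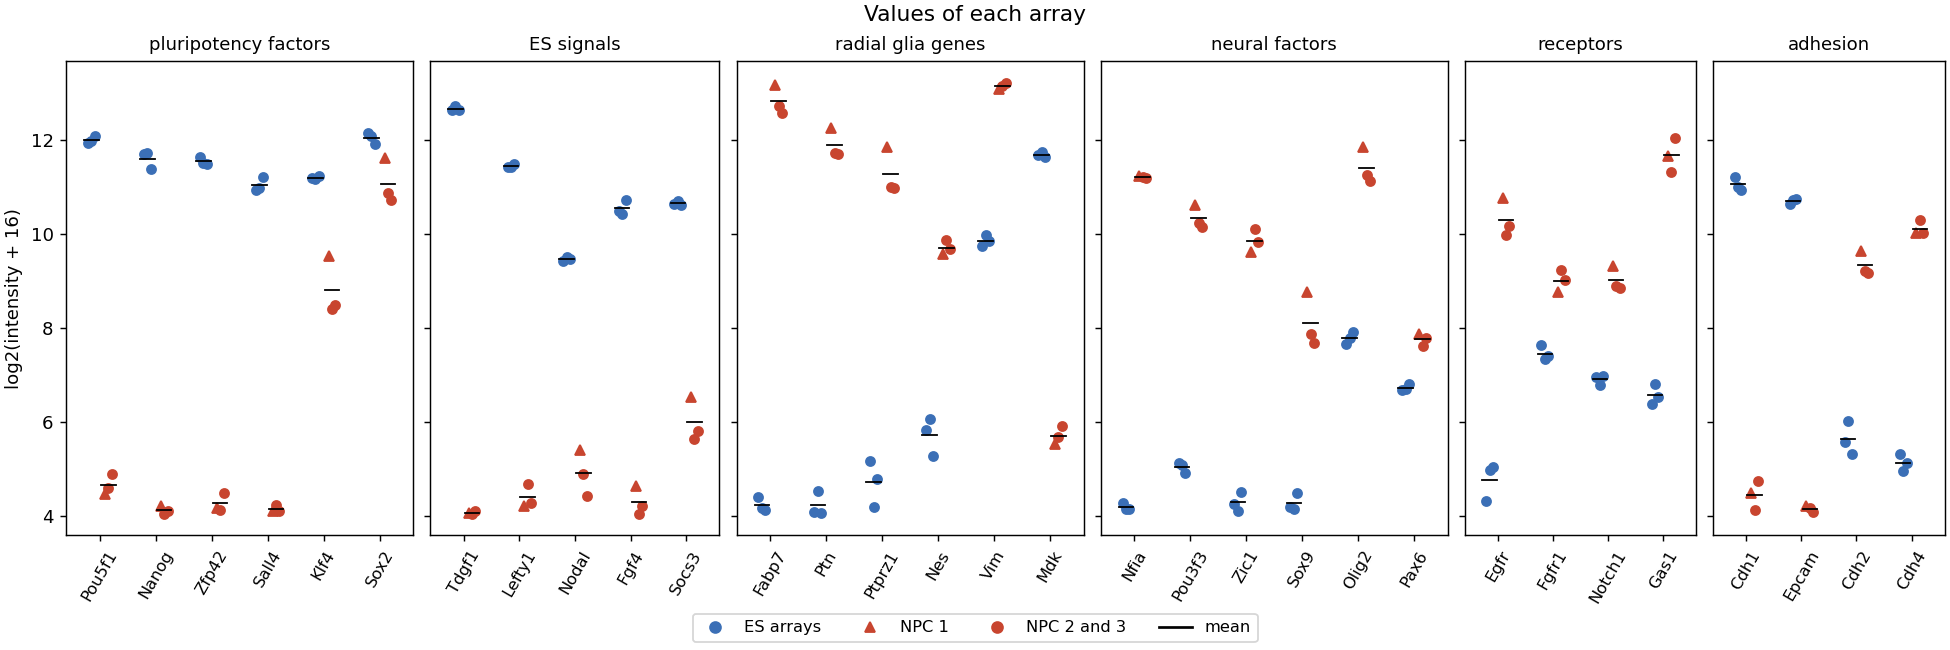
Log2 value of each ES and NPC array for 31 genes in 6 groups, with the mean as a bar and NPC 1 as a triangle. For all 31 genes the ES and NPC arrays do not overlap, and Sox2 differs by less than 1 log2 unit.

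Radial glia genes were higher in NPC for 17 of 23 measured members, with a median difference of 3.71. Ptn, the growth factor pleiotrophin, read 4.08, 4.52 and 4.06 in ES cells and 12.25, 11.72 and 11.70 in NPC, and its receptor Ptprz1 read 5.17, 4.18 and 4.79 and 11.86, 11.003 and 10.97. Slc1a3, the glial glutamate transporter GLAST, rose by 4.08. Vim, the intermediate filament vimentin (chosen after its values were seen), was already high in ES cells and rose from 9.75, 9.98 and 9.85 to 13.09, 13.15 and 13.22. Mdk, midkine, which belongs to the same small growth factor family as Ptn, moved in the opposite direction, from 11.69, 11.74 and 11.64 to 5.53, 5.68 and 5.91. Prom1, the membrane protein prominin 1 (CD133) used to sort stem cells, was lower too (-2.28). Hes5, a Notch target of radial glia, was not called (0.86).

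Neural transcription factors formed the list with the largest share of higher members, 21 of 24 with none lower. Nfia, a nuclear factor I gene of gliogenic precursors, read 4.27, 4.15 and 4.14 in ES cells and 11.24, 11.22 and 11.20 in NPC, with little spread on either side. Nfix (5.31, but 0.91 and not called without probe sets of shared sequence), Rfx4 (4.82) and Zeb1 (4.28) followed. Pax6 was called with a small difference of 1.03, and was not called without NPC 1 (0.98), while Sox1 was not called (-0.97). Families divided by member. In the Sox family 8 of 19 members were higher, including Sox6 (4.09), Sox9 (3.83), Sox11 (3.64) and Sox8 (2.71). Sox9, which radial glia need to make glia, read 4.19, 4.15 and 4.47 in ES cells and 8.76, 7.88 and 7.67 in NPC. The lower 4 were Sox15 (-2.79), the endoderm factors Sox7 (-1.76) and Sox17 (-1.26), and Sox13 (-1.58). In the POU family Pou5f1 alone was lower, while Pou3f3 (Brn1) read 5.13, 5.08 and 4.92 and then 10.62, 10.23 and 10.16, a difference of 5.29. Pou6f1 (2.39), Pou3f1 and Pou3f2 (1.36) were higher as well, and the other 5 measured members were not called.

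Positional factors were called in both forebrain and hindbrain classes. Of 26 forebrain factors 8 were higher, with the orphan receptor Nr2f1 (COUP-TFI) at 5.37, from 4.61, 4.32 and 4.33 to 9.68, 9.96 and 9.74, and Lhx2 at 3.40, and the lower ones were Otx2, Hesx1 (-2.63) and Eomes (-1.47). The midbrain and hindbrain list had 5 of 19 higher, with Irx5 at 2.23 and Egr2 (Krox20) at 2.07. Its lower members were Gbx2 (-2.15) and Phox2a (-1.48). Among 23 dorsal and ventral neural tube factors 3 were higher. The dorsal gene Zic1 rose by 5.57, from 4.25, 4.11 and 4.50 to 9.61, 10.11 and 9.84. The ventral gene Nkx2-2 rose by 3.77 and the floor plate gene Foxa1 by 1.52, and Zic5 was the only lower member. Nkx2-2 read 6.56, 8.71 and 8.89 on the NPC arrays, lowest on NPC 1. Hox genes, which set position along the hindbrain and cord, were called higher for 4 of 33 members, with Hoxa5 at 3.39, Hoxd8 at 2.76, Hoxa3 at 2.55 and Hoxa4 at 2.08, a share close to that of all genes. Without NPC 1, 6 were called. Bulk RNA cannot show whether genes of different positions were in the same cells.

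Of 9 receptors for FGF and EGF family ligands 3 were higher in NPC, 1 was lower and 5 were not called. Egfr read 4.31, 4.97 and 5.03 in ES cells and 10.76, 9.97 and 10.17 in NPC, a difference of 5.53 (SE 0.24, adjusted p = 2e-07 by limma). Fgfr1 rose by 1.55 (0.48 and not called without probe sets of shared sequence) and the decoy receptor Fgfrl1 by 2.03, while Erbb3, the neuregulin receptor, fell by 2.82 on the log2 scale. Fgfr2 (-0.51), Fgfr3 (0.84), Fgfr4 (-0.61), Erbb2 (0.29) and Erbb4 (0.35) were not called. Of 22 measured ligands 3 were higher, Fgf1 (2.13) and the intracellular Fgf13 (1.48) and Fgf12 (1.24), and 4 lower, Fgf4, Fgf17 (-2.63), Fgf15 (-1.64) and Hbegf (-1.25). These shares, 13.6% and 18.2%, were not far from those of all genes (10.0% and 12.9%). Fgf2 itself was not called (-0.13). Of 16 feedback and target genes of the ERK pathway 9 were higher and 2 lower, and among the higher ones were the inhibitors Spry1 (2.78) and Dusp6 (2.15). Myc read 6.0, 6.31 and 6.14 and then 10.40, 10.08 and 9.99, while Mycn, its relative, had a difference of -4.50 on its brightest probe set and -0.72, not called, on the average of its probe sets. In the same network Mxd4, a repressor that competes with Myc for Max, rose by 4.17.

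Other pathways changed in part of their members. For Notch, 8 of 28 genes were higher and 6 lower. Notch1 rose by 2.10, its ligand Jag1 by 2.25 and the ligand modifier Lfng by 2.61, while the DNA-binding partner Rbpj (-2.30) and the receptor Notch4 (-2.02) were lower. For Wnt, 8 of 42 were higher and 7 lower, and the Frizzled receptors divided, with Fzd1 at 4.07 and Fzd3 at 2.41 against Fzd5 at -2.98 and Fzd7 at -2.32. In the Hedgehog pathway the co-receptor Gas1 rose by 5.10, from 6.39, 6.81 and 6.54 to 11.67, 11.33 and 12.04, and the transducer Smo by 2.07. The transcription factors Gli1 (-2.21) and Gli2 (-2.76) were lower, and the target and receptor Ptch1 was not called (-0.69). In the retinoic acid pathway 7 of 21 genes were lower, including the binding proteins Crabp1 (-2.65) and Crabp2 (-3.63), and 3 were higher, the orphan receptors Nr2f1 and Nr2f2 (2.23) and the synthesis enzyme Aldh1a1 (1.53).

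**Figure D3:**
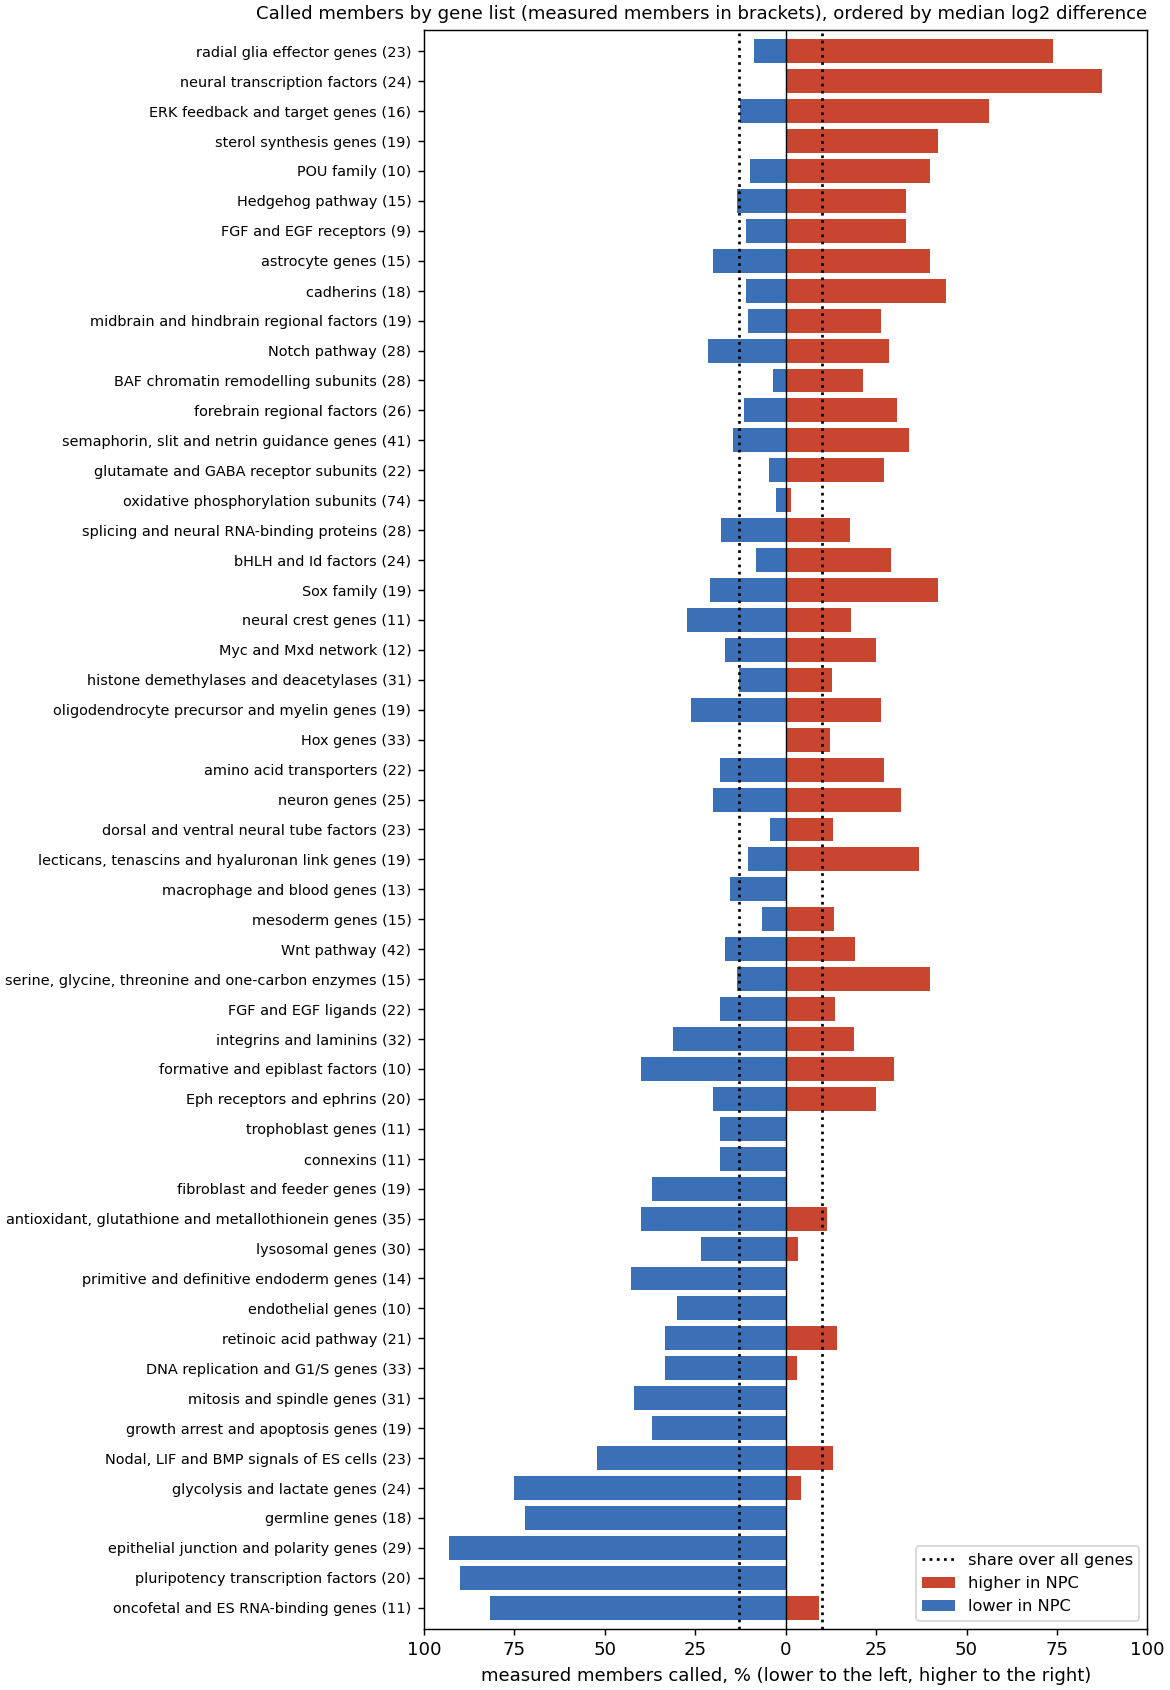
Share of the measured members of each gene list called higher (right) or lower (left) in NPC, ordered by median difference, with dotted lines at the shares over all genes. Pluripotency, oncofetal and epithelial lists lie at the bottom and radial glia and neural factors at the top, while oxidative phosphorylation subunits have almost no called members.

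Of 29 epithelial junction and polarity genes 27 fell and none rose, including the adhesion molecule Epcam, which read 10.64, 10.72 and 10.73 and then 4.20, 4.16 and 4.08, and the splicing regulator Esrp1 (-4.19). Cdh1 (E-cadherin) fell by 6.60 on the log2 scale. Of 18 cadherins 8 rose, with Cdh4 (R-cadherin) at 4.98, Cdh10 at 4.06 and Cdh2 (N-cadherin) at 3.71, and 2 fell, Cdh1 and Cdh3 (-1.96). Of 32 integrin and basement membrane genes 6 were higher and 10 lower. The laminin chain Lama1 was at -5.11 and the nidogens Nid1 at -4.07 and Nid2 at -4.44, while the integrin Itgb8 rose by 4.01. Bcan (brevican), a proteoglycan of brain matrix, read 5.71, 5.55 and 5.69 in ES cells and 11.89, 12.02 and 11.90 in NPC. The related Ncan (neurocan) read 6.16, 6.12 and 6.13 and then 11.88, 10.63 and 11.26, and 7 of 19 genes of this matrix were higher and 2 lower, Acan (-1.23) and Has2 (-1.11). Of 41 guidance genes 14 were higher and 6 lower. Sema6d, a transmembrane semaphorin, rose by 6.44 and Sema6a by 4.32, while the secreted Sema3e (-3.49) and Slit2 (-2.12) were lower. Among 20 Eph receptors and ephrins 5 were higher and 4 lower, with the receptor Epha5 at 2.86 and Epha2 at -3.50. Of 11 connexins, which form gap junctions, none was higher and Gjb5 (-3.32) and Gja1 (-2.77, and -3.72 without NPC 1) were lower.

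Of 28 subunits of the BAF remodelling complex 6 were higher and 1 lower. The ATPase Smarca2 (Brm) read 4.38, 4.98 and 4.48 and then 8.07, 7.74 and 7.75, while the alternative ATPase Smarca4 (Brg1) had a difference of 0.05 with overlapping arrays. Smarca2 was not called without probe sets of shared sequence (0.70). Smarcd3 (2.51), Dpf3 (2.18), Dpf1 (1.92) and Smarcc2 (1.83) were higher too, with Phf10 (1.05, chosen after its values were seen), and Smarcd2 was lower (-2.02). Actl6b, a subunit of the complex in neurons, was not called (0.18). Over 30 pairs of related genes chosen so that the first is known in pluripotent or embryonic cells, the first was lower and the second higher in 9, among them Phc1 (-3.0) and Phc2 (2.66), Ccnd3 (-1.62) and Ccnd2 (4.81), Aldoa (-1.46) and Aldoc (2.27), and Fabp3 (-7.28) and Fabp7. The pairs were chosen with earlier results of these data known, so their counts describe these pairs only and test nothing. Over all genes 12.9% were lower and 10.0% higher. The cyclin Ccnd2 read 7.03, 7.19 and 7.08 in ES cells and 12.55, 11.53 and 11.65 in NPC, while Ccnd3 read 9.93, 9.86 and 10.01 and 8.35, 8.23 and 8.38. In 8 pairs only the first was lower, such as Tet1 (-4.10) beside Tet3 (0.27), and in 4 both were, such as the glucose transporters Slc2a3 (-6.60) and Slc2a1 (-3.86). In 4 pairs only the second changed upwards, and in 2 it was lower, Ezh1 (-2.33) beside Ezh2 (-0.44) and Ldhb (-2.51) beside Ldha (-0.46). Ezh1 was not called without probe sets of shared sequence (-0.25) or with probe sets averaged (-0.92), and Ccnd3 was not with averaging (-0.74). Of 31 histone demethylases and deacetylases 4 were higher and 4 lower, 12.9% each way, which is close to the shares of all genes. Among them were the demethylase Phf2 (2.40) and the deacetylase Hdac9 (2.40) against the demethylase Kdm5b (-2.02) and the deacetylase Sirt1 (-2.0). Of 28 splicing and RNA-binding genes 5 were higher and 5 lower, 17.9% each way, against 10.0% and 12.9% of all genes. Mbnl1 rose by 2.62 and Nova1 by 2.36, while Ptbp1 and Ptbp2 were not called (-0.55 and -0.17).

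Of 24 glycolysis and lactate genes 18 were lower, with the phosphofructokinase Pfkp at -5.08 and the pyruvate dehydrogenase kinase Pdk1 at -5.33, and Aldoc was the only higher member. Oxidative phosphorylation subunits were nearly all uncalled, 1 of 74 higher and 2 lower. All 3 were tissue-restricted cytochrome oxidase subunits, Cox6a2 (1.88), Cox6b2 (-5.81, and -6.46 without NPC 1) and Cox7a1 (-3.69), and 2 were higher without NPC 1. Of 35 antioxidant and metallothionein genes 14 were lower and 4 higher. The lower ones were led by Gsta4, a glutathione transferase, from 12.28, 12.29 and 12.29 to 5.47, 5.39 and 5.50. Of 15 serine and one-carbon enzymes 6 were higher and 2 lower, with the serine synthesis enzymes Phgdh at 1.59 and Psph at 1.5 and the mitochondrial folate enzyme Aldh1l2 at 3.99, against cytosolic Mthfd1 at -2.21. Of 22 amino acid transporters 6 were higher and 4 lower, and the cationic amino acid transporters divided, with Slc7a1 at 2.21 and Slc7a3 at -4.51. Slc7a3 read 10.29, 10.35 and 10.50 in ES cells and 6.75, 5.56 and 5.30 in NPC. Of 30 lysosomal genes 7 were lower, led by the protease Ctsz (-5.95, and -7.04 without NPC 1), and Laptm4b was higher (1.05). Replication genes were lower for 11 of 33 and mitosis genes for 13 of 31, with median differences of -0.76 and -0.82. Orc1, an origin recognition subunit, fell by 2.60 and the mitotic cyclin Ccnb2 was lower (-3.29), while Cdk1 was not called (-0.48). The 2 cyclins E went in opposite directions, Ccne1 at -1.73 and Ccne2 at 1.66.

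Markers of the cell types that precursors give rise to were called in part. Gfap, the astrocyte filament, was not called (5.16, 5.18 and 5.20 in ES cells, 4.91, 4.95 and 5.08 in NPC), although Sparcl1 rose by 7.01, and 6 of 15 astrocyte genes were higher and 3 lower (Apoe -5.75, Gja1 and Clu -2.61). Of the oligodendrocyte genes Sox10 was not called (0.05), the precursor receptor Pdgfra (-1.5) and the myelin protein Mbp (-1.92) were lower, and Bcas1 rose by 4.32. In all 5 of 19 were higher and 5 lower, with a median difference of 0.004. The summed intensity of the list was 987 to 1076 in ES cells and 6119 to 7251 in NPC. Bright members such as Bcan (6.29) and Bcas1 weigh most in that sum, so it does not show a rise of the list as a whole. Neuron genes divided, 8 of 25 higher and 5 lower. Map2 rose by 5.22, the neuronal tubulin Tubb3 was not called (-0.93) and Stmn2 fell from 11.43, 11.40 and 11.45 to 4.41, 4.60 and 4.15. The growth cone protein Gap43 (3.92) and the synaptic vesicle protein Syt1 (3.16, and 3.88 without NPC 1) were higher, while the neurofilaments Nefl (-3.26) and Nefh (-2.72) were lower. Of 22 glutamate and GABA receptor subunits 6 were higher, led by Gria4 (4.63), and Grik3 was lower (-1.83). Of 24 basic helix-loop-helix and Id factors 7 were higher, with Olig1 at 3.50 and the broadly expressed partner Tcf4 at 3.41, and Bhlhe40 (-1.96, and -2.54 without NPC 1) and Id4 (-1.41, and -0.80, not called, without NPC 1) were lower.

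Markers of other cell types differed by list. Fibroblast genes, which residual feeders would carry, were lower for 7 of 19 and higher for none (1 without NPC 1), and their summed intensity was 960.4 to 991 in ES cells, 370.3 to 929.8 in NPC and 61935 to 62062 in MEF. The defining collagen Col1a1 read 4.12, 4.24 and 4.10 in NPC, and the part of feeder cells in the difference was not tested. Endoderm genes were lower for 6 of 14 and higher for none, with Gata6 at -2.32 and Cubn at -3.67, and their summed intensity was 1129 to 1367 in ES cells and 154 to 213 in NPC. Of 11 trophoblast genes Tfap2c (-5.16) and Krt7 (-2.12) were lower, 18.2% against 12.9% of all genes. Of 13 macrophage and blood genes Laptm5 (-3.70) and Cd68 (-3.31) were lower (15.4%), a share near that of all genes. Laptm5 stood at 0.74 without probe sets of shared sequence. Of 10 endothelial genes Pecam1 (-2.85), Egfl7 (-2.07) and Eng (-1.83) were lower, with no higher member in any of these 3 lists. Mesoderm genes were at 239 to 259.8 summed in ES cells and 266 to 288 in NPC, with Foxc1 (1.72) and Hand2 (1.06) higher and Eomes lower. Of 11 neural crest genes, summed at 481 to 632 in ES cells and 739.9 to 1162 in NPC, Ets1 (3.60) and Twist1 (1.83) were higher, and Erbb3, Foxd3 (-1.83) and Ngfr (-1.79) lower. Their median difference was 0.05, and bright members such as Ets1 weigh most in the sum. In bulk RNA, fewer cells of a type and less RNA per cell cannot be told apart.

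Large differences were also found among genes in none of the lists, for genes whose NPC arrays lay within 1 log2 unit of each other. Adam12, a membrane metalloprotease, read 4.69, 4.70 and 4.82 and then 10.84, 10.78 and 10.92. Kcnd3, a potassium channel, rose by 6.06, Dock10, an exchange factor for small GTPases, by 6.04 and Calcrl, the calcitonin receptor-like receptor, by 6.02, but Calcrl was not called without probe sets of shared sequence (0.30). Pantr1, a noncoding RNA transcribed beside Pou3f3, rose by 6.0. Astn1 (astrotactin), which neurons use to migrate along glia, rose by 5.30 and Ptgds, a prostaglandin D synthase, by 5.62. Lower were Chchd10, a mitochondrial protein, from 13.08, 13.10 and 13.02 to 5.42, 5.20 and 5.06, the interferon-inducible Ifitm1 (-7.23), the small heat shock protein Hspb1 (-6.89) and Fbxo15, a target of the pluripotency circuit (-6.64).

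NPC 1 stood apart from NPC 2 and NPC 3. It lay at least 1 log2 unit above the mean of the other 2 for 437 genes and below it for 383, against 42 and 40 for ES 3, the most distant ES array. Where NPC 2 and NPC 3 lay within 0.5 of each other, 390 genes were higher on NPC 1, 232 of them towards the ES mean, and 352 were lower, 292 of them towards it. By the same measure, 29 of 32 higher and 26 of 36 lower genes of ES 3 lay towards the NPC mean. Towards the ES mean were 15 of 20 and 13 of 21 for NPC 2, and 10 of 11 and 9 of 21 for NPC 3. Lying towards the other group was therefore not particular to NPC 1. Mest, an imprinted gene, read 8.89, 9.03 and 9.16 on the ES arrays and 4.99, 11.92 and 12.07 on NPC 1, 2 and 3, so it was far below ES on 1 NPC array and above it on the others. Ndn (necdin), also imprinted, read 8.15, 7.99 and 7.94 in ES cells and 10.24, 4.28 and 4.38 in NPC. Neither was called (0.63 and -1.72), and without NPC 1 both were, at 2.98 and -3.71. Among the NPC arrays, Armcx2 (10.16, 4.32 and 4.32) and Nap1l5 (8.87, 4.10 and 4.12, imprinted) were also high on NPC 1 only. Armcx2 was high in ES cells too (9.19, 9.17 and 8.86), while Nap1l5 was not (4.53, 4.54 and 4.93). Ctse, the protease cathepsin E (6.89, 12.61 and 12.89), was low on NPC 1. Ctse was called with all arrays (5.68) but not without probe sets of shared sequence (0.03). Hoxc4 was at the floor on NPC 1 (4.09, 7.48 and 7.39), and was not called with all arrays (2.06) but was without NPC 1, at 3.19. No test was made of 1 array against 2.

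**Figure D4:**
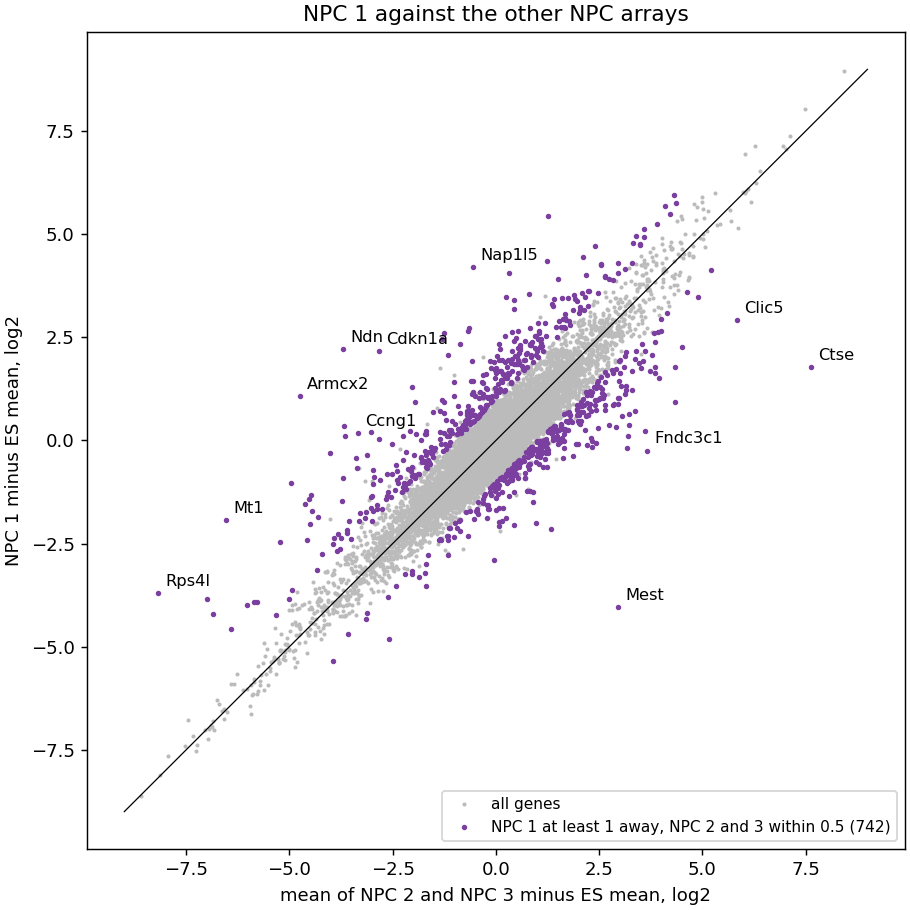
Difference of NPC 1 from the ES mean against that of NPC 2 and NPC 3, for all genes, with the line of equality. The 742 coloured genes are at least 1 log2 unit from the mean of NPC 2 and NPC 3 where these lie within 0.5 of each other, with Mest far below the line and Ndn, Armcx2 and Cdkn1a far above it.

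A list of p53 and its targets is named growth arrest and apoptosis genes in the plot of lists. Over its 19 measured members the median difference from ES was -0.02 on NPC 1 but -1.57 and -1.82 on NPC 2 and NPC 3. Cdkn1a, the cell cycle inhibitor p21, read 9.18, 9.53 and 9.31 in ES cells and 11.50, 6.38 and 6.65 in NPC. Ccng1 (11.04, 7.66 and 7.37 in NPC, 10.89, 10.88 and 10.81 in ES cells) was likewise above the ES arrays on NPC 1 and below them on the others. Phlda3 (8.84, 5.92 and 6.03 in NPC, 8.68, 8.92 and 8.81 in ES cells) was within the ES range on NPC 1 and below it on the others, and these 2 were chosen after their values were seen. The list had 7 members called lower with all arrays and 11 without NPC 1. Sterol synthesis genes went the other way, with median differences of 0.27, 1.20 and 1.33 on NPC 1, 2 and 3, and 8 of 19 called higher with all arrays against 13 without NPC 1. Cyp51, which demethylates lanosterol, read 8.86, 9.02 and 8.80 in ES cells and 10.11, 11.11 and 11.26 in NPC. The metallothionein Mt1 kept part of its ES level on NPC 1 only (11.998, 11.85 and 11.85 in ES cells, 9.96, 5.39 and 5.34 in NPC). A list of imprinted genes was chosen after the values were seen, so its counts test nothing. On NPC 1, 4 of its 31 measured members lay at least 1 log2 unit above the mean of the others and 2 below. Over all 18193 genes these counts were 437 and 383. In NPC 8 members were called higher (25.8%) and 7 lower (22.6%), against 10.0% and 12.9% of all genes. Meg3 (-6.12, chosen after its values were seen), Phlda2 (-6.53) and Slc38a4 (-5.08) were low on all 3 NPC arrays. Pluripotency and radial glia lists had like medians on the 3 NPC arrays, from -4.94 to -4.57 and from 3.40 to 3.85.

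The NPC arrays also differed by chromosome, a comparison chosen after the values were seen. Over 253 genes of chromosome 12 (RefSeq, GRCm38.p6) with a mean log2 value above 7, the median difference from the ES mean was -0.41 on NPC 2 and -0.36 on NPC 3 but -0.03 on NPC 1. Over 267 genes of chromosome 15 it was 0.13, 0.13 and -0.07. NPC 2 and NPC 3 together were at 0.14 there, and at 0.07 with median centring and 0.02 with the deposited scaling. The highest of the 18 other chromosomes moved alike, at 0.16, 0.12 and 0.07, so chromosome 15 lay within their range each time. For chromosome 12 the value was -0.42, -0.47 and -0.53, below the lowest of the others each time (-0.12, -0.19 and -0.27). The median of NPC 1 minus the mean of NPC 2 and NPC 3 was -0.25, -0.28 and -0.18 on chromosome 15. That was below the lowest of the 18 other chromosomes each time (-0.14, -0.18 and -0.08). For the 18 other chromosomes the medians of NPC 2 and NPC 3 together lay between -0.12 and 0.16. With chromosome 12 divided into 3 parts of equal gene number in map order, every part was lower on NPC 2 and NPC 3, from -0.28 to -0.52, and on NPC 1 the parts lay between -0.10 and 0.07. On NPC 2 and NPC 3, 66.8% of these chromosome 12 genes were below their ES mean, against 41.9% for chromosome 15 and 42.8% to 58.5% for the other 18. Chromosome number was not measured, and its part in these values was not tested.

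**Figure D5:**
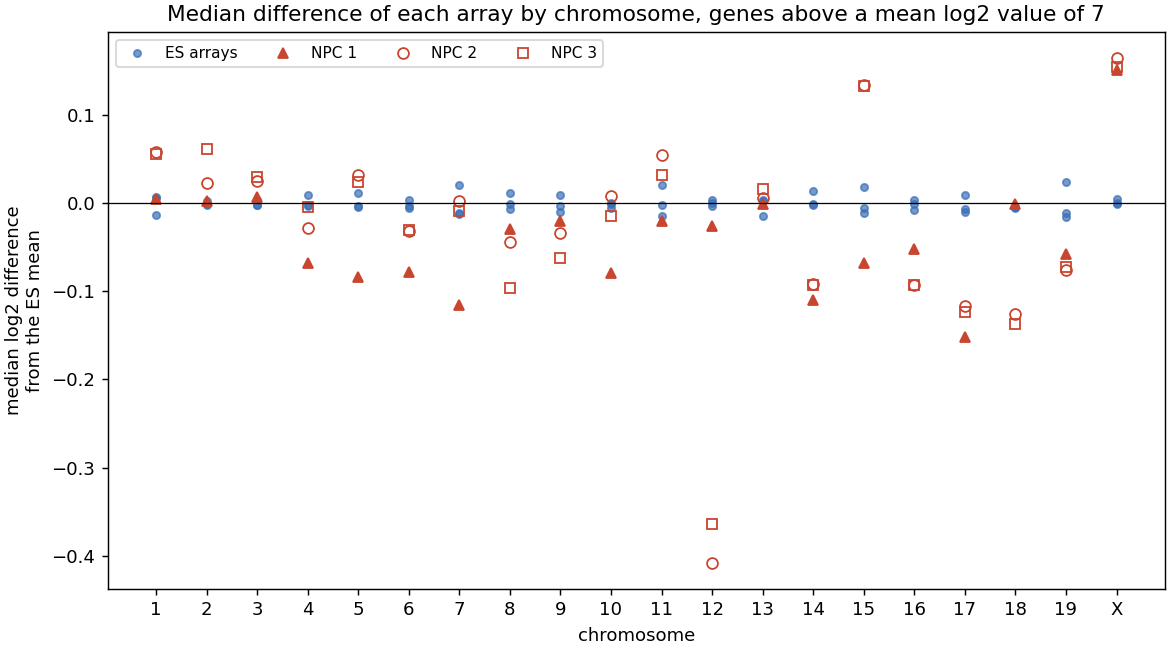
Median difference of each array from the mean of the ES arrays, by chromosome, for genes with a mean log2 value above 7. NPC 2 and NPC 3 lie near -0.36 to -0.41 on chromosome 12 and near 0.13 on chromosome 15, where NPC 1 does not follow them, and all 3 NPC arrays lie near 0.15 on X.

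Genes read by several probe sets did not always give 1 answer. At the level of probe sets, 7030 of 34945 with 1 gene were called (20.1%), and 20 genes had probe sets called in opposite directions. The de novo DNA methyltransferase Dnmt3a gave the largest such pair, with differences of 1.74 and -3.73, while the probe set used here was not called (0.80), so the pair of Dnmt3b (-3.50) with Dnmt3a was read on that probe set only. Klf3 (2.03 and -1.73), Jam2 (2.25 and -1.66), Med1 (1.41 and -1.45) and Prdm11 (1.39 and -2.17) followed. Probe sets listed with no gene were called in 9.59% of cases and those listed with several genes in 14.4%. The calls of Hoxa3 (0.75), Ezh1 (-0.25) and Fgf12 (0.85) were also lost without probe sets of shared sequence. With probe sets averaged for each gene, calls were lost for Ccnd3, Ezh1, Fgf12, Fgf13, Grhl2, Grik3, Hand2, Hoxa3, Klf3, Mbp, Med1, Ngfr, Notch4, Pax6, Pdgfra, Prdm11, Sox7 and Stat3, with values between -0.97 and 0.88.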

How the data were processed

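RNA was measured on 3 ES, 3 NPC and 2 MEF arrays, Affymetrix whole-genome mouse arrays of 1 colour. The deposited values are linear intensities, 1 per probe set and array, made by the authors with GCOS 1.4 according to the submitters' processing notes, and any other step is not given in the sources used here. Arrays were grouped by title, and no reads or depth exist, so the number of arrays limits precision. From these intensities log2(intensity + 16) was computed, quantile normalized over 45037 non-control probe sets of 8 arrays, and each gene was read by its brightest probe set. Gene names came from the platform annotation, updated through RefSeq. Some genes were not analysed here.

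limma 3.58.1 in R 4.3.3 fitted all 8 arrays with a variance trend, and a gene was called where the Benjamini-Hochberg adjusted p was under 0.05 and the log2 difference reached 1 in size. On simulated data 87% of genes changed by 1.5 and 100% of those changed by 3 on the log2 scale were recovered among 18193, with 2 of 17993 unchanged genes called. The simulated noise was normal and independent with 1 spread per gene, and 100 genes were changed by each size. No simulated array stood apart as NPC 1 did, so these shares check the fit and do not measure how reliable the calls are. Members, gene lists and tests were chosen with earlier results of these data known. Named are key members, up to 4 of the largest called members per list and direction, all members of short lists and pairs, the largest differences overall and outside lists, genes far off on NPC 1, and opposite probe sets. Other named genes are marked. Alternatives changed the scaling, the pseudocount to 1 or 64, the filter on dim genes, the probe set, the variance model, the arrays, the threshold, the replicate block and each replicate. They kept the chosen probe set except where the alternative concerned probe sets.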

Additional observations from a re-analysis of the deposited data

Results flagged for a closer look

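Outside the genes described above, 878 of 9160 probe sets that the annotation lists with no gene were called. In NPC 613 of these read higher and 265 read lower. These data are no part of the gene comparison. The lowest, 1449064_at, read 12.03, 11.88 and 12.04 in ES cells and 5.22, 4.34 and 4.20 in NPC, a difference of -7.40. A high one, 1441065_at, read 4.19, 4.60 and 4.52 and then 9.89, 9.83 and 9.63. Probe set 1431213_a_at was lower on NPC 1 (7.40) than on NPC 2 (10.69) and NPC 3 (11.40). Of 932 probe sets listed with several genes, 134 were called, 55 higher and 79 lower, and none of them is named here.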

How the results depend on the processing

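Of 234 called genes named in the text, 187 kept their call under every alternative that kept the calling thresholds. Calls of named genes lost at stricter thresholds were not counted. Among the alternatives counted, the pseudocount of 64 ended the most such calls (26), followed by the mean of probe sets (19). The pseudocount of 64 lowers the differences of dim genes by construction. With a pseudocount of 64, 2626 genes were called, 1215 higher and 1411 lower, and at a log2 difference of at least 2, 1509 were called, 649 higher and 860 lower. Fewer genes pass these by construction. Leaving out 1 array gave between 4110 and 4438 called genes, 1781 to 1993 higher and 2310 to 2445 lower. Direction reversed for Dnmt3a with the mean of probe sets (-1.10) and for Laptm5 without probe sets of shared sequence (0.74). The median difference of all genes was -0.05 with median centring and -0.08 with the deposited scaling. The cause of each change was not tested.

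Replicate numbers are shared by ES and NPC in the labels, but arrays of the same number did not deviate together (correlations of -0.024, -0.017 and -0.0054). With 3 arrays in each group these correlations cannot show whether arrays of the same number were handled together. With the replicate block 4186 genes were called, 1834 higher and 2352 lower.

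Without NPC 1, calls ended for Id4, Laptm4b, Pax6 and Phf10 (-0.80, 0.93, 0.98 and 0.77) and were gained for Armcx2, Ccng1, Cdkn1a, Hoxc4, Mest, Ndn, S100a4, Sox2 and Vamp7. Hoxc4 was also called with array weights, either other scaling, the dimmest genes left out or the replicate block (1.90 to 2.89). Without NPC 2 or NPC 3, Foxa1, Foxd1, Hand2 and Phlda3 were not called (1.29, 1.60, 0.86 and -1.38, or 1.26, 1.74, 0.87 and -1.43). The chromosome 12 median of NPC 1 minus the mean of NPC 2 and NPC 3 was 0.38, and between 0.34 and 0.43 under other scalings and levels. That of chromosome 15 was -0.25, and between -0.28 and -0.18. Both lay outside the range of the other chromosomes under each of these settings. Intensities near the floor of the scale limit the fold that dim genes can show.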

Other observations

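Several other genes in none of the lists had large differences with close NPC arrays. Higher in NPC were Ank2, an ankyrin that anchors membrane proteins to the cytoskeleton (5.65), Slc25a18, a mitochondrial glutamate carrier (5.17), and Fbn2, a fibrillin of microfibrils (5.14). Lower were Mymx, a small membrane protein of muscle cell fusion (-6.96), Plp2 (-6.19), Trap1a (-6.61) and Mtm1, a phosphoinositide phosphatase (-6.16). Mymx read 11.18, 11.12 and 10.81 in ES cells and 4.03, 4.08 and 4.11 in NPC.

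Further genes were far off on NPC 1 when the NPC arrays are compared with each other. Rps4l (8.58, 4.07 and 4.13 on NPC 1, 2 and 3) and Vamp7, a vesicle fusion protein (8.12, 4.06 and 4.11), were high there. Without NPC 1 the difference of Vamp7 from ES was -3.71, so NPC 2 and NPC 3 were far below ES. Low on NPC 1 were S100a4, a calcium-binding protein (4.38, 7.79 and 7.92), and the integrin subunit Itga8 (5.92, 9.35 and 9.31). The kidney and stromal factor Foxd1 (4.32, 7.55 and 7.26) and Mapt, the microtubule protein tau (5.27, 8.08 and 8.40), were low there too. These are values of single arrays with no test.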
